A study of Mus musculus with 2 samples.

Results

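The genes described here encode the subunits of respiratory complexes II to V and a small number of factors that assemble complex IV. They were taken by gene symbol (Sdha to Sdhd, Uqcr, Cyc1, Cox followed by a digit, Atp5, mt-Co, mt-Cytb and mt-Atp) from the genes with a protein-coding transcript, leaving out Cox7a1, Cox8b and Cox6a2. This gave 61 of 21901 such genes: 43 nuclear structural subunits, 6 subunits encoded in mitochondrial DNA, 11 assembly factors and related proteins, and a second annotated record of Atp5o. The rule uses symbols and no measured value, but it was set with earlier results of these data known. Total RNA was sequenced from adrenal glands of female B6CASTF1/J mice, a cross of C57BL/6J and CAST/EiJ, at 36 days of age. A total of 300 ng of RNA per library was depleted of ribosomal RNA, and ERCC spike-in RNAs were used. No treatment is given, and the 2 libraries, called replicates 1 and 2, form the only group. The labels are not uniform on whether the libraries came from separate animals, so the spread between them may be technical.

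Complex II, succinate dehydrogenase, passes electrons from succinate to ubiquinone and is also an enzyme of the citric acid cycle. Complex III passes them on to cytochrome c, complex IV uses them to reduce oxygen, and complex V, ATP synthase, makes ATP from the proton gradient that complexes I, III and IV build. Complex II is encoded wholly in the nucleus, while the other complexes combine nuclear subunits with ones encoded in mitochondrial DNA. In the adrenal cortex the first and last steps of corticosteroid synthesis take place in mitochondria, and their P450 enzymes draw electrons from NADPH through their own carrier proteins.

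The gene tables held 35684781 expected counts in replicate 1 and 38701795 in replicate 2. Expected counts are reads apportioned by the authors among the records they fit, and TPM is the level per length, scaled to a fixed sum over all records. Levels are those of the gene table unless a second quantification, made straight from the reads, is named. With 1 group of 2 libraries there was no contrast of conditions and no test, and differences between libraries are described against all genes. All 7 markers of the adrenal cortex were above 1 TPM in both libraries, with a summed level of 16361 and 16834 TPM. Of the other lists, 6 of 6 brown fat, 3 of 4 general adipocyte, 5 of 5 chromaffin cell and 3 of 3 red blood cell markers were above 1 TPM in both, against 2 of 8 for skeletal muscle, 1 of 4 for liver and 0 of 4 for kidney. Muscle and liver markers were low mainly in replicate 2. Their sums in replicates 1 and 2 were 295 and 4.33 TPM for muscle and 29.3 and 1.61 TPM for liver.

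Nearly all of the genes were expressed, and the structural subunits were far above the typical gene. At least 1 TPM was reached in both libraries by 57 of the 61, and at least 100 TPM by 42. The median level of the 43 nuclear structural subunits was 171 ± 6.59 TPM (SD, n = 2), made of 176 TPM in replicate 1 and 167 TPM in replicate 2, beside 10.3 TPM over the 11675 protein-coding genes above 1 TPM. By complex, the median of the nuclear structural subunits was 143 ± 0.750 TPM for complex II, 199 ± 0.474 TPM for complex III, 176 ± 6.79 TPM for complex IV and 161 ± 5.40 TPM for complex V (SD, n = 2 each). The complex IV median took in Cox6b2, Cox4i2, Cox8c and Cox7b2, none above 2.71 TPM. Its place below complex III in the gene table rested on these low genes. In the second quantification complex IV, at 456 and 472 TPM, was above complex III, at 388 and 380 TPM. The 35 nuclear subunit records of complex I, measured the same way, had a median of 99.3 ± 0.771 TPM (SD, n = 2). The 11 assembly factors and related proteins had a median of 22.6 ± 1.40 TPM (SD, n = 2), below the median of every complex. All 61 genes together held 3.81% and 3.90% of the counts of replicates 1 and 2, and the 6 mitochondrial genes alone 3.08% and 3.18%. Both shares leave out counts given to near-identical records outside the set, described further on. The largest, Gm28661, a copy of mt-Co2, had 299160 and 325253 counts.

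**Figure D1:**
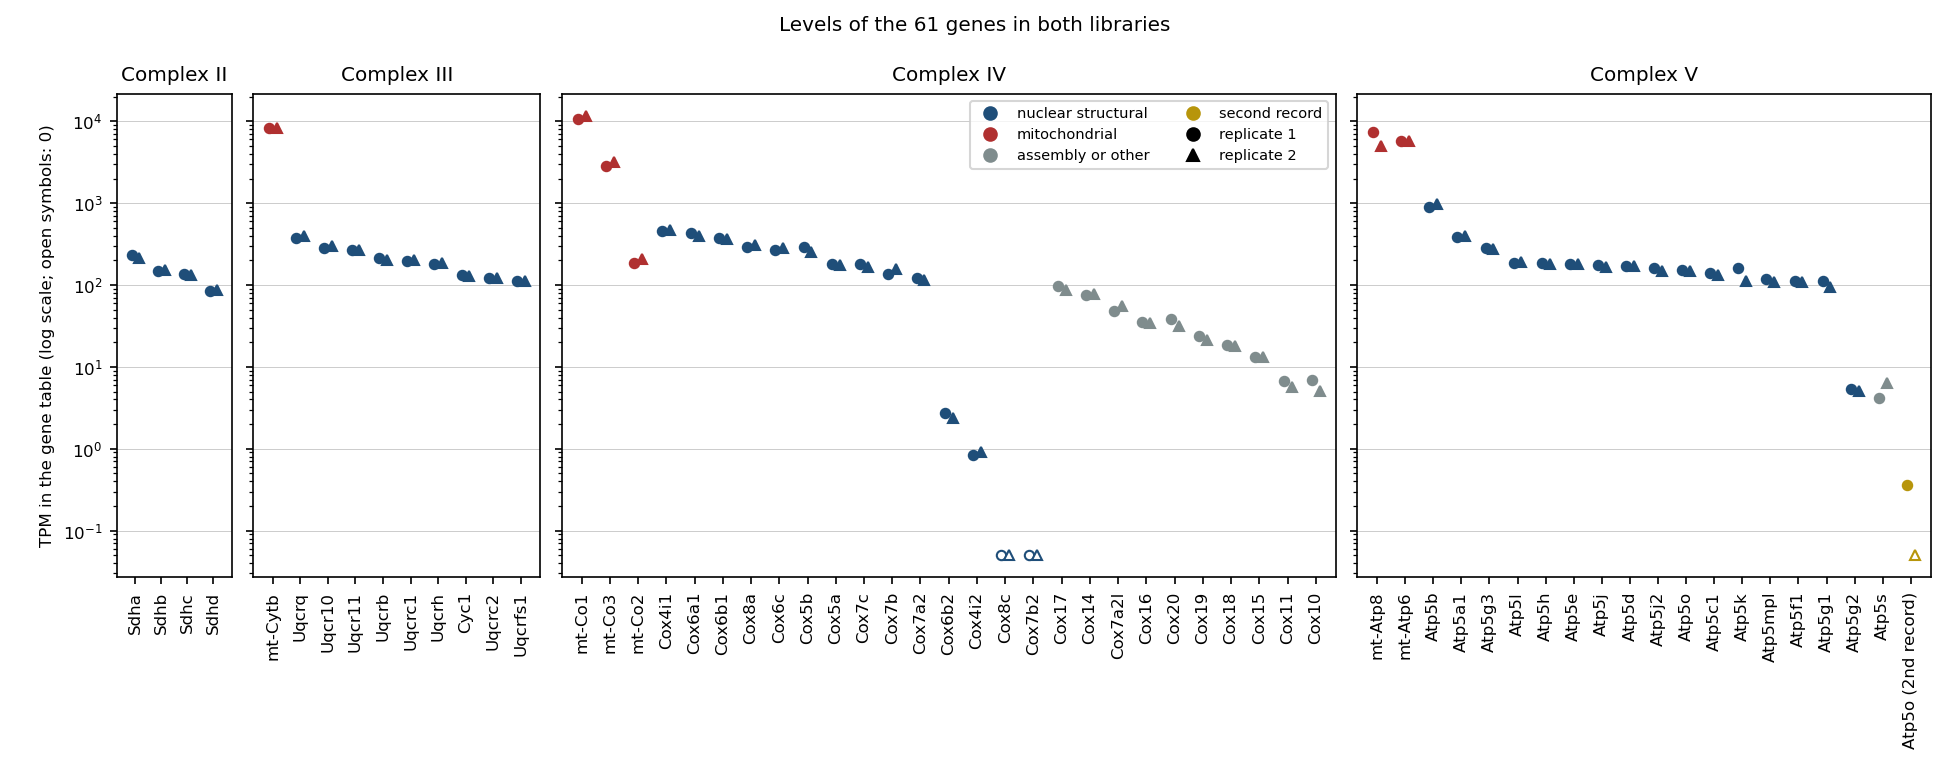
Level of each of the 61 genes, in TPM of the gene table on a log axis, with circles for replicate 1 and triangles for replicate 2, coloured by class and grouped by complex. Open symbols at the foot are values of 0. Mitochondrial genes stand at the top apart from mt-Co2, which lies at 184 and 208 TPM among the nuclear subunits, and Cox6b2, Cox4i2, Cox8c, Cox7b2 and Atp5g2 lie far below the other structural subunits.

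The subunits of complex II spanned a narrow range. Sdha, the flavoprotein that oxidises succinate, stood at 235 and 213 TPM. Sdhb, the iron-sulfur subunit, stood at 150.4 and 151 TPM. The membrane anchors were lower, with Sdhc at 136 and 133 TPM and Sdhd at 84.9 and 87.96 TPM. The order was the same in both libraries, and the gap between Sdhb and Sdhc was wider than the spread of either. In the second quantification Sdhb stood at 307 and 305 TPM, Sdhc at 139 and 143 TPM and Sdhd at 132 and 137 TPM. The order was thus kept, but the spacing depended on the table. The ratio of Sdha to Sdhd was 2.77 in replicate 1 and 2.42 in replicate 2.

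All 9 nuclear subunits of complex III exceeded 100 TPM in both libraries, and they lay within 3.39-fold of each other in mean level. The small subunits led. Uqcrq was highest at 371 and 392 TPM, ahead of Uqcr10 at 286 and 301 TPM and Uqcr11 at 268 and 269 TPM. Uqcrb stood at 213 and 199.8 TPM, Uqcrc1, a core protein on the matrix side, at 199 and 201 TPM, and Uqcrh, the hinge protein at cytochrome c1, at 182 and 186 TPM. Uqcrb and Uqcrc1 changed places between the libraries. Cyc1, cytochrome c1, reached 134 and 129 TPM, and Uqcrc2, the other core protein, 122 and 123 TPM. Uqcrfs1, the Rieske iron-sulfur protein, was lowest at 113 and 112 TPM. Uqcrq was highest and Uqcrfs1 lowest in the second quantification too, but there Cyc1, at 379 and 365 TPM, was above Uqcrh, at 337 and 361 TPM, and Uqcrc2, at 312 and 316 TPM.

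In complex IV, which has its catalytic centre in mitochondrially encoded subunits, 10 of the 14 nuclear structural subunits exceeded 100 TPM in both libraries. Cox4i1, a regulatory subunit on which assembly depends, was highest at 454 and 465 TPM, with Cox6a1 next at 434 and 401 TPM. The ranges of these 2 genes did not overlap. For whole genes this order holds for the gene table only: in the second quantification Cox6a1 had 910 and 826 TPM around Cox4i1 at 893 and 893 TPM. There, however, Cox6a1-202, a retained-intron record, held 87.3% and 88.0% of Cox6a1, while coding transcripts held 81.5% and 80.9% of Cox4i1. Over coding transcripts alone, Cox4i1 was the higher in both tables. In the gene table Cox7c counted with its copies, described further on, summed to 708 and 680 TPM. Of that sum, 485 and 465 TPM came from Gm12338, a copy of only 192 bases. By counts the copies raised Cox7c only from 2820 and 2772 to 4856 and 4957. Cox6b1 stood at 372 and 359.9 TPM, Cox8a at 293 and 310.4 TPM, Cox6c at 271 and 282 TPM and Cox5b at 293 and 255 TPM. Cox5a lay at 179.98 and 176 TPM, Cox7c at 181 and 167 TPM, Cox7b at 135 and 155 TPM and Cox7a2 at 121 and 117 TPM. The remaining 4 are paralogues known from other tissues, described further on.

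Among the nuclear genes of complex V the catalytic head led. Atp5b, the β subunit that carries the catalytic sites, was the highest nuclear gene of the whole set at 899 and 963 TPM. Atp5a1, the α subunit, stood at 387 and 392 TPM. These subunits are present in equal number in the enzyme, yet the ratio of Atp5b to Atp5a1 was 2.32 and 2.46 at the RNA level. It was 1.96 and 1.99 in the second quantification, and 1.62 and 1.61 between the coding transcripts Atp5b-201 and Atp5a1-201 of the alignment-derived table, in which records without a coding annotation (processed transcripts) held 31.04% and 35.4% of Atp5b. Of the rest of the head and central stalk, Atp5d (δ) stood at 169 and 170.3 TPM, Atp5e (ε) at 179 and 181 TPM and Atp5c1 (γ) at 141 and 134 TPM. These were close to one another in the gene table, but in the second quantification Atp5e, at 691 and 721 TPM, stood near Atp5a1, at 729 and 735 TPM, and apart from Atp5d at 296 and 298 TPM.

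The nuclear peripheral stalk and membrane subunits of complex V were all below Atp5a1. In the stalk, Atp5h (d) stood at 185 and 181 TPM, Atp5j (F6) at 176 and 165 TPM, Atp5o (the oligomycin sensitivity protein) at 154 and 149.9 TPM and Atp5f1 (b) at 111 and 109.9 TPM. In the membrane, Atp5l (g) stood at 187 and 193 TPM, Atp5j2 (f) at 159 and 147 TPM, Atp5k (e) at 161 and 113 TPM and Atp5mpl at 119 and 110.1 TPM. Atp5g3, the most abundant of the genes for the c ring, stood at 281 and 274 TPM, and Atp5g1 at 111 and 95.9 TPM. Atp5g2, another c ring gene, was lowest at 5.32 and 5.09 TPM, a value that depended on how reads were divided, as given below. The second Atp5o record, ENSMUSG00000116933.1, had 0.36 TPM from 5.62 counts in replicate 1 and 0 in replicate 2.

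The 6 genes encoded in mitochondrial DNA had a median of 5951 ± 855 TPM (SD, n = 2). mt-Co1, the catalytic subunit of complex IV, was highest at 10821 and 11747 TPM, and mt-Cytb, the cytochrome b of complex III, stood at 8269 and 8363 TPM. mt-Atp8 and mt-Atp6, membrane subunits of complex V, stood at 7350.2 and 4990.1 TPM and at 5761 and 5702 TPM. mt-Co3 stood at 2844 and 3169 TPM. mt-Co2, which holds the copper centre that receives electrons from cytochrome c, stood at only 184 and 208 TPM, below Cox4i1. However, its deposited TPM intervals, 1241 to 2260 and 1329 to 2488, lay above these levels and above Cox4i1. Those of mt-Co3, 4137 to 5029 and 4575 to 6040, also lay above its levels. Taken at face value, mt-Co1 exceeded mt-Co2 58.9-fold and 56.5-fold.

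That low level of mt-Co2 went with a near-identical record on chromosome 1. In mm10, mt-Co2 lies at chrM:7013-7696 on the plus strand, and the record Gm28661, an annotated unprocessed pseudogene, lies at chr1:24614885-24615565 on the minus strand. The 681 bases of Gm28661 occur letter for letter inside the mt-Co2 transcript, so a read within them fits both records equally. Gm28661 was given 14252 and 14446 TPM, and mt-Co2 only 1.28% and 1.43% of the counts of the gene and its copies. The first 60 coding bases, shared by both, are shown as GENCODE M21 has them.

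mt-Co2 and Gm28661: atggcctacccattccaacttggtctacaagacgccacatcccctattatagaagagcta

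The same stretch of chromosome 1 held 3 further copies, in the same order as on the mitochondrial genome: Gm29216 (chr1:24615706-24616197), Gm10925 (chr1:24613974-24614651) and Gm28437 (chr1:24613189-24613971), all on the minus strand. Gm10925 and Gm28437 are contained in full in the mt-Atp6 and mt-Co3 transcripts. mt-Atp6 (chrM:7927-8607) received 35.2% and 31.6% of the counts it shared with Gm10925, and mt-Co3 (chrM:8607-9390) 28.2% and 26.5% of those it shared with Gm28437. mt-Co1 (chrM:5328-6872) kept 91.6% and 90.9%, and Gm29216 matches only bases 1054 to 1545 of its transcript. Within those 492 bases there were 6 differences, T1056A, C1057T, A1059G, A1060G, C1062A and A1066T, counted from the 5′ end of mt-Co1 with its base first. The following 479 bases were identical. The window from base 1054 to 1081 shows the differing bases in capitals.

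mt-Co1: ggTCtAAcCggaAttgttttatccaact

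Gm29216: ggATtGGcAggaTttgttttatccaact

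Counted with their copies, the mitochondrial genes lay closer together. mt-Co2 and its copies reached 14444 and 14659.8 TPM together, and mt-Co1 and its copies 14479.7 and 16077 TPM. The ratio of mt-Co1 to mt-Co2 was then 1.00 and 1.10 in place of 58.9 and 56.5. It was 0.82 and 0.81 with copies in the second quantification, so their order depended on the table. These sums add TPM of records of unlike length. Gm29216, of 492 bases, added 3656 and 4327 TPM to mt-Co1 from 51820 and 65786 counts, while mt-Co1 itself had 564343 and 657155 counts. mt-Co3 with its copy reached 10087 and 11951 TPM, and mt-Atp6 with its copy 16442 and 18097 TPM. mt-Cytb had no such copy among the annotated transcripts. The median of the 6 genes was 12785 TPM with copies, an alternative chosen after the data were seen. How much of this RNA came from the nucleus was not tested.

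mt-Atp8 (chrM:7766-7969) overlaps the start of mt-Atp6 by 43 bases, read in another frame, and both are carried on the same transcript in the mitochondrion. The shared bases, chrM:7927-7969 on the plus strand, are shown because reads within them fit both genes.

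mt-Atp8 and mt-Atp6: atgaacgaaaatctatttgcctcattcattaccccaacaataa

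mt-Atp8 is short, at 204 bases. The alignment-derived table gave it an effective length, the number of positions at which a fragment can start, of 105 bases in both libraries, and the table derived from reads one of 44.8 and 40.6 bases. The gene table gave it 27835 and 20270.0 counts. The second quantification listed it at 0 in both libraries, and gave mt-Atp6 22750.2 and 24082 TPM, above mt-Co1 at 19973 and 21622 TPM. The level of mt-Atp8, and its difference between the libraries, are therefore uncertain.

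Nuclear subunits also shared reads with copies, most of them annotated as processed pseudogenes, which are copies of a spliced transcript. A copy was counted where it shared at least 100 words of 31 bases with the gene, on the same strand. Of the 57 genes above 1 TPM in both libraries, 20 had a copy and 37 had none. Atp5g2 (chr15:102662864-102672352, minus strand) kept 4.59% and 4.15% of the counts shared with its copies. Nearly all the rest went to Gm10175 (chr7:23946646-23947290, minus strand), at 127 and 134 TPM, which holds the entire coding sequence of Atp5g2 without a difference. Cox7c (chr13:86044816-86046904, minus strand) kept 58.1% and 55.9%, with Gm12338 (chr11:75599763-75599954) at 485 and 465 TPM, above Cox7c itself. By counts Gm12338, of only 192 bases, was below Cox7c, at 1625 and 1674 against 2820 and 2772. Atp5l kept 77.0% and 75.5%, mostly against Gm10221 (chr5:24581554-24581862), Atp5h 83.3% and 81.8% against Gm10250, Cox7a2l 82.8% and 84.8% against Gm6969, and Cox5b 92.3% and 92.2% against Gm11273, a record annotated as protein-coding. Cox16 kept 68.6% and 66.7% against Gm20498, an overlapping record also annotated as protein-coding. The start of the coding sequence is shown for the 3 nuclear genes whose copy holds it whole.

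Atp5g2 and Gm10175: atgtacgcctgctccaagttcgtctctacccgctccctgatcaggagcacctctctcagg

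Cox7c and Gm12338: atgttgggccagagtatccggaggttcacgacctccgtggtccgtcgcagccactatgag

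Atp5l and Gm10221: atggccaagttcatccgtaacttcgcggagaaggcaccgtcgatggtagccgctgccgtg

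The second quantification divided these reads otherwise. It gave Gm10175, Gm12338, Gm10221, Gm10250 and Gm11273 a level of 0 in both libraries, and Atp5g2 231 and 237 TPM in place of 5.32 and 5.09. Cox7c was given 740.5 and 708 TPM. mt-Atp6 was given 98.2% and 93.8% of the counts shared with its copy, but mt-Co2 only 4.63% and 4.28%. In general a TPM of the second quantification was higher, with a median log2 ratio to the gene table of 0.72 over 11669 protein-coding genes. Nuclear protein-coding genes took 59.2% of its TPM and 31.2% of that of the gene table. Relative to that median, genes without copies stood at a median of 0.11, genes with copies at 0.35, and the latter at 0.04 once each was counted together with its copies. The genes farthest from agreement were mt-Atp8, Atp5g2, mt-Co2, Cox7c and mt-Atp6, of which the last 4 have copies.

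**Figure D2:**
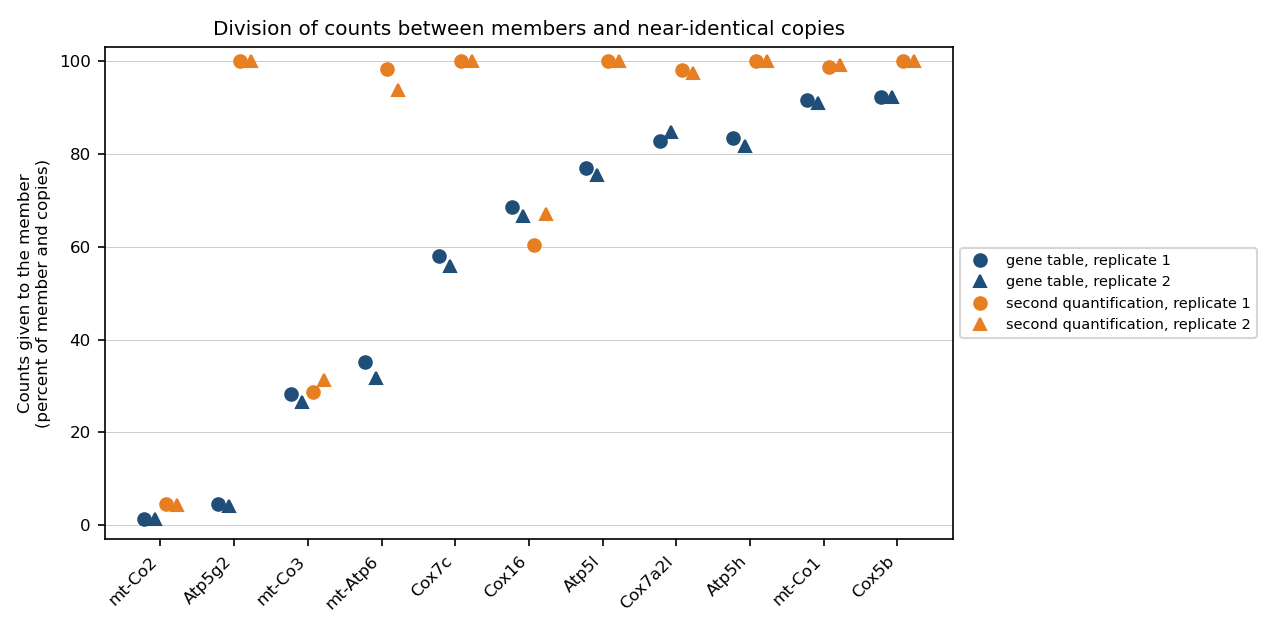
Percent of counts given to the gene itself, of the counts of the gene and its near-identical copies, for the 11 genes below 95% in either quantification of replicate 1. Blue symbols are the gene table and orange ones the second quantification, with circles for replicate 1 and triangles for replicate 2. Atp5g2 moved from 4.59% and 4.15% to 100%, while mt-Co2 stayed below 5% and mt-Co3 near 30% in both.

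Several subunits have paralogues of which one is typical of a tissue, and here the ubiquitous forms prevailed in 4 of the 7 sets examined. Cox4i1 held 99.8% of the subunit 4 level, and Cox4i2, the form known from lung and from low oxygen, had 0.83 and 0.91 TPM from 19 and 22 counts. Cox6b1 held 99.3% against Cox6b2, the testis form, at 2.71 and 2.36 TPM. Cox7b2 and Cox8c, also testis forms, had no count in either library of the gene table, which allows up to 3 counts each, or an upper limit of 0.0841 and 0.0775 per 1000000 counts. The second quantification gave Cox7b2 1 count in replicate 1. Cox6a1 held 98.1% and 99.5% of subunit 6A. Of these 4 sets, subunit 6A had the widest spread between the libraries.

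The forms typical of heart, muscle and brown fat, which the choice of genes left out, were abundant in 2 sets. Cox8b stood at 327 and 324 TPM against Cox8a at 293 and 310.4 TPM, so Cox8a held 48.1 ± 1.21% of subunit 8 (SD, n = 2). Cox7a1 stood at 122 and 134 TPM against Cox7a2 at 121 and 117 TPM, while Cox7a2l, a related protein of complex III and IV supercomplexes, stood at 48.3 and 54.9 TPM. In the second quantification Cox7a2 held 54.5% and 49.9% of subunit 7A, against 41.6% and 38.3% in the gene table, and Cox7a1 held 29.4% and 33.7%. For whole genes, which of Cox7a1 and Cox7a2 was higher thus depended on the table. However, processed transcripts held 58.8% and 59.4% of Cox7a2 in the second quantification, while all of Cox7a1 lay in coding transcripts. Over coding transcripts alone, Cox7a1 was the higher in both tables.

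Other cell types were present beside these forms. The 4 brown fat markers other than Cox7a1 and Cox8b summed to 479 and 423 TPM with none at 0, led by Ucp1, the uncoupling protein, at 319.7 and 257 TPM and Cidea at 139 and 152 TPM. Elovl3 at 11.8 and 8.04 TPM and Dio2 at 8.21 and 5.50 TPM were lower in replicate 2. The 4 general adipocyte markers summed to 1025 and 989 TPM. All 8 skeletal muscle markers, a list that holds Cox6a2, were lower in replicate 2, with sums of 295 and 4.33 TPM. Cox6a2 itself stood at 8.49 and 2.09 TPM, a count share ratio of 0.243 (exact 95% interval 0.173 to 0.337), whereas Cox8b and Cox7a1 differed by log2 values of -0.01 and 0.13. The part of fat and muscle in the levels of the structural subunits was not tested. In a bulk sample, fewer cells of a type and less RNA per cell cannot be told apart.

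Subunit c of ATP synthase is encoded by Atp5g1, Atp5g2 and Atp5g3, whose precursors differ in the targeting sequence and give the same mature protein. In the gene table Atp5g3 held 71.9 ± 1.61%, Atp5g1 26.7 ± 1.63% and Atp5g2 1.35 ± 0.0142% of their summed TPM (SD, n = 2). In the second quantification the shares were 56.2 ± 0.830%, 16.7 ± 1.53% and 27.1 ± 0.703% (SD, n = 2). With copies added to the gene table, Atp5g2 held 24.9% and 27.2% and Atp5g3 held 52.9% and 53.4%. Atp5g3 was thus the leading gene each time, but whether Atp5g1 or Atp5g2 came next depended on the treatment of Gm10175.

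**Figure D3:**
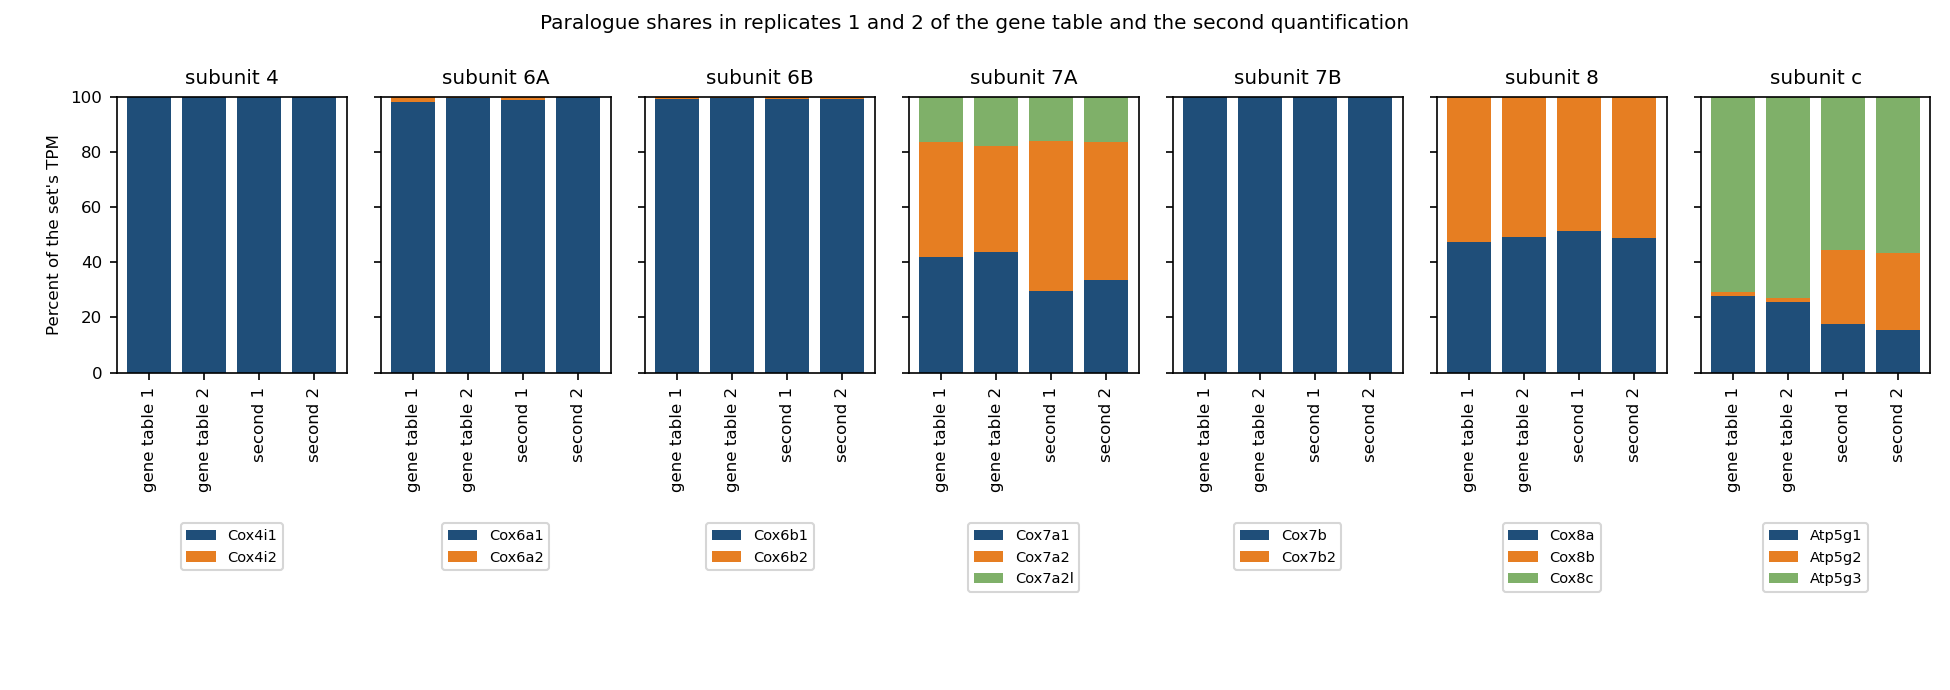
Percent of each set's summed TPM held by each paralogue, as stacked bars for replicates 1 and 2 of the gene table and of the second quantification. Subunits 4, 6A, 6B and 7B are nearly 1 form throughout, Cox8a and Cox8b share subunit 8 about equally, and the orange Atp5g2 segment of subunit c is 1.35% in the gene table and 27.1% in the second quantification.

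The assembly factors, most of which serve complex IV, all lay below 100 TPM in the gene table, lower than most of the structural subunits. Cox17, the copper chaperone of the intermembrane space, stood at 96.4 and 87.4 TPM and Cox14, a factor for the synthesis of the mt-Co1 protein, at 76.6 and 77.9 TPM. Their order turned in the second quantification, with Cox14 at 133 and 132 TPM and Cox17 at 101 and 99.4 TPM. Cox16 stood at 35.3 and 34.4 TPM, Cox20, a chaperone of mt-Co2, at 38.1 and 31.4 TPM, Cox19 at 23.5 and 21.6 TPM and Cox18, an insertase for mt-Co2, at 18.5 and 17.9 TPM. The enzymes of heme A synthesis, Cox15 and Cox10, stood at 13.1 and 13.3 TPM and at 6.86 and 5.11 TPM. Cox11, which delivers copper to mt-Co1, stood at 6.73 and 5.64 TPM. Atp5s, a protein related to ATP synthase coupling, stood at 4.15 and 6.34 TPM.

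The other genes of the pathway were mostly in the same low range. Of 42 further assembly factors, carriers and regulators, 40 reached 1 TPM in both libraries, except Cyct, the testis cytochrome c, with at most 1 count, and Pet117 at 2.19 and 0.97 TPM. The median levels were 12.0 and 11.8 TPM for 4 complex II assembly factors, 17.0 and 16.9 TPM for 6 of complex III, 20.7 and 20.7 TPM for 16 genes of complex IV and 28.2 and 29.3 TPM for 5 of ATP synthase. Ndufa4, now counted as a subunit of complex IV, stood apart at 349.7 and 365 TPM, on the level of Cox6b1. Cycs, the somatic cytochrome c, was listed at only 16.1 and 15.0 TPM in the gene table and at 266 and 256 TPM in the second quantification. The 9 regulators, among them Nrf1, Gabpa, Esrra and Ppargc1a, had medians of 13.3 and 15.5 TPM.

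Levels of the 61 genes were close in the 2 libraries. The ratio of replicate 2 to replicate 1 was taken on TPM + 0.1 for the 56 genes with 200 or more summed counts. The median absolute log2 ratio was 0.06, against 0.12 over the protein-coding genes above 1 TPM. Those genes had a median of 10.3 TPM, against 155 TPM for all 61 genes, and the comparison was not matched for level. The 35 nuclear records of complex I were also at 0.06. The log2 ratio itself was -0.03 in the median for the nuclear structural subunits, of which 17 were higher and 22 lower in replicate 2. It was 0.07 for the mitochondrial genes and -0.05 for the assembly factors and related proteins. Over all genes with 200 or more counts the median was 0.04. The higher library was 25% or more above the lower, a log2 ratio beyond 0.32 either way, in 4 of the 56, or 7.14%, while 14.0% of all 12280 genes and 13.3% of 11612 protein-coding genes with that many counts differed as much. None differed 2-fold, as 0.758% of those protein-coding genes did. Among genes with 1000 or more counts, 3 of 52 differed as much, beside 8.22% of 7884 protein-coding genes.

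**Figure D4:**
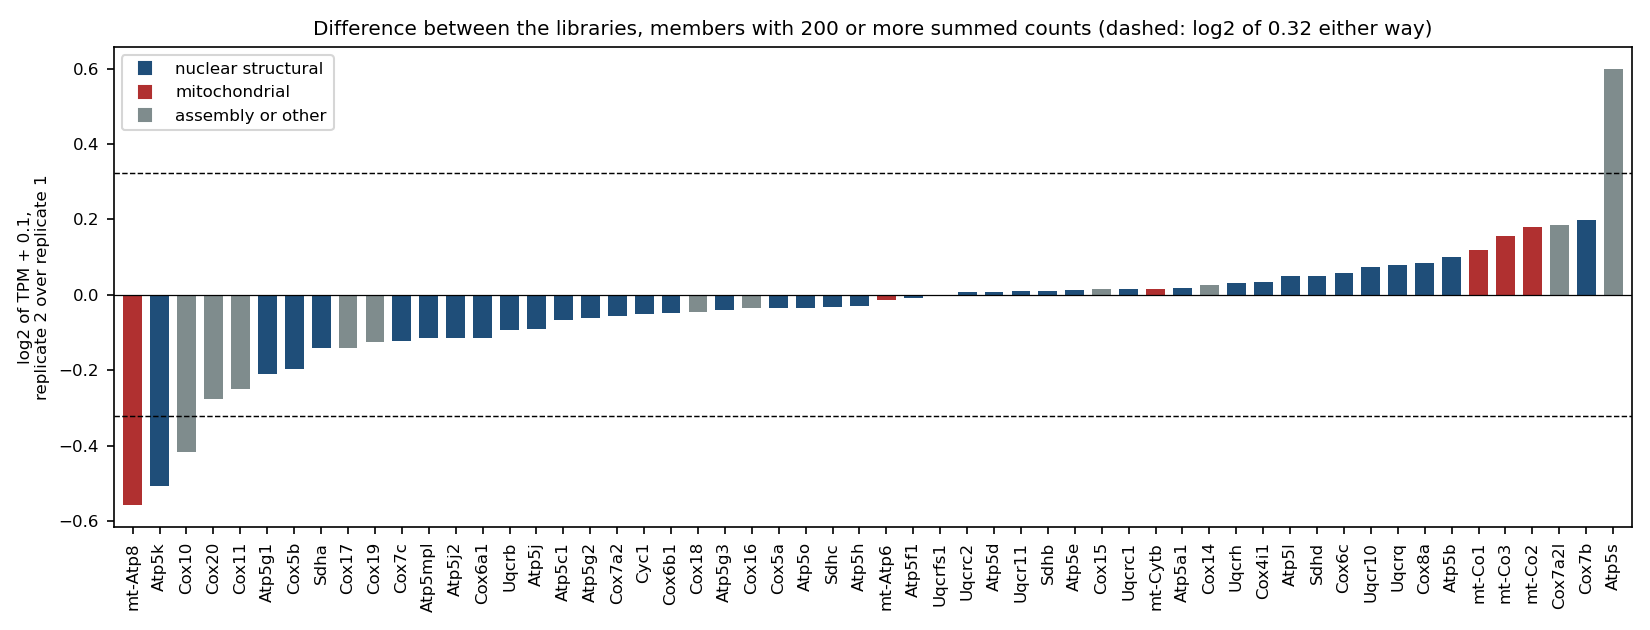
Log2 ratio of TPM + 0.1, replicate 2 over replicate 1, for the 56 genes with 200 or more summed counts, ordered by value and coloured by class. Dashed lines mark a log2 ratio of 0.32 either way, a difference of 25%. Only mt-Atp8, Atp5k and Cox10 lie below the lower line and Atp5s above the upper one.

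Of the 4 genes 25% or more apart, mt-Atp8 and Atp5k encode subunits of complex V, Atp5s is related to complex V and Cox10 serves complex IV. Atp5s was higher in replicate 2 and the others were lower. Atp5k, which joins ATP synthase into dimers as subunit e, had 1589.99 and 1201 counts, a log2 ratio of -0.51, a count share ratio of 0.696 (exact 95% interval 0.646 to 0.751) and a log2 ratio of -0.40 in the second quantification. There, however, the retained-intron Atp5k-203 held 97.1% and 85.0% of the gene, and the coding Atp5k-201 stood at 6.56 and 26.1 TPM, against 160 and 112 TPM in the alignment-derived table, so the direction for the coding transcript differed between the tables. Atp5s had 145 and 216 counts, a log2 ratio of 0.60, a count share ratio of 1.37 (exact 95% interval 1.11 to 1.71) and 0.63 in the second quantification. These intervals cover counting error only. Cox10, at a log2 ratio of -0.42, had 561 and 557 counts and a log2 ratio of -0.17 in the second quantification, under the 25% mark. Its coding transcript Cox10-201 stood at 5.16 and 5.11 TPM, and the difference lay in the 706-base Cox10-202, at 1.70 and 0 TPM. mt-Atp8, at -0.56, was not measurable in the second quantification.

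Next in order were Cox20 at -0.28 on the lower side, and Cox7b at 0.20, Cox7a2l at 0.19 and mt-Co2 at 0.18 on the upper side, all under the 25% mark. The sign held in the second quantification for Cox20, Cox7b and Cox7a2l, at -0.41, 0.16 and 0.17, but not for mt-Co2, at -0.02. The deposited TPM intervals of the libraries did not overlap for 13 of the 56 genes, a larger share than the 14.9% of protein-coding genes. That background was not matched for depth. The 13 included Sdha, mt-Cytb, mt-Co1, Cox6a1, Cox8a, Cox5b, Atp5b and Atp5g1. For mt-Cytb, at a log2 ratio of 0.02, the levels of 8269 and 8363 TPM lay above their own intervals, 8085 to 8144 and 8190 to 8246. Intervals apart are thus no measure of a difference in level. The level of confidence of those intervals is not given in the sources used here. All 5 chromaffin, all 3 red blood cell and all 4 liver markers were lower in replicate 2, with sums of 1479.6 and 1109.7 TPM, of 965 and 760.3 TPM and of 29.3 and 1.61 TPM, and their part in these differences was not tested.

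In the other genes of the pathway, 40 had 200 or more counts, of which 2 were higher and 3 lower in replicate 2 by 25% or more, with a median log2 ratio of 0.06. These 12.5% are near the 14.0% of all genes and 13.3% of protein-coding genes given above. Of the 5, only Sdhaf1, an assembly factor of complex II, at log2 ratios of 0.40 and 0.39, was as far apart in the second quantification in the same direction. Cmc1 was at 0.36 and 0.19, Ppargc1a, a coactivator of mitochondrial genes, at -0.45 and -0.31, and Coa7 at -0.37 and -0.11. Lyrm7, a chaperone of the Rieske protein, turned from -0.65 to 0.48.

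Most genes of the set were represented by a single transcript in the alignment-derived table, which did not hold throughout in the second quantification, as given below. In the alignment-derived transcript table the leading transcript held a median of 94.2% of a gene's TPM over the 57 genes above 1 TPM, and 9 had only 1 annotated transcript. Retained-intron records held a median of 0.345% of a gene's level, against 1.54% over all detected protein-coding genes. In 10 genes the leading transcript held under 60% or was not protein-coding: Sdhc, Cox5b, Cox6b2, Cox7b, Cox16, Cox18, Cox19, Atp5f1, Atp5j and Atp5s. The leading record was one without a coding annotation or marked for nonsense-mediated decay in 5 of them. In the second quantification such a record led in 9 of the 57 genes, only 2 of them (Cox7b and Cox19) among these 5. The others were Atp5k, Atp5l and Cox6a1 with retained-intron records at 91.1%, 56.8% and 87.6%, Cox7a2, Uqcr11 and Uqcrh with processed transcripts, and Cyc1 with a record marked for nonsense-mediated decay.

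Those 5 were not alike when read in the other quantification. For Atp5j, the retained-intron record Atp5j-208 held 84.5% and 82.6%, but 22.4% on average in the second quantification, where the coding Atp5j-203 led with 57.8%. For Cox5b, the processed transcript Cox5b-205 held 58.5% and 64.7%, against 17.8%. For Cox7b, the retained-intron Cox7b-203 held 46.95% and 52.9%, and 99.8% in the second quantification. Atp5f1-203, annotated for nonsense-mediated decay, held 49.1% and 52.6%, against 42.6%, and Cox19-206 held 68.0% and 60.9%, against 48.3%. The leading transcript was the same in both quantifications for 42 of the 57 genes.

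In the other 5 genes the leading transcript was protein-coding and held under 60% on average. Sdhc and Atp5s were split between coding transcripts only, while part of Cox16, Cox18 and Cox6b2 lay in other records. Processed transcripts held 31.3% and 33.8% of Cox16, and records marked for nonsense-mediated decay 22.1% and 24.4% of Cox18. Sdhc-201 held 49.2% and 52.9%, and 83.0% in the second quantification. Cox16-202 held 54.5% and 50.7%, Cox18-201 43.5% and 44.9% and Atp5s-204 50.1% and 37.6%. Cox6b2-209 held 64.6% and 33.1%, from 35 counts per library for the whole gene. In 7 genes (Atp5g1, Atp5g3, Atp5h, Atp5mpl, Cox4i1, Uqcr11 and Uqcrh) the leading transcript of the alignment-derived table had under 1% in the second quantification. For Cox4i1 the lead passed from Cox4i1-201, with 96.7%, to Cox4i1-205, with 81.0%. A statement on single transcripts of these genes therefore holds for 1 table only.

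**Figure D5:**
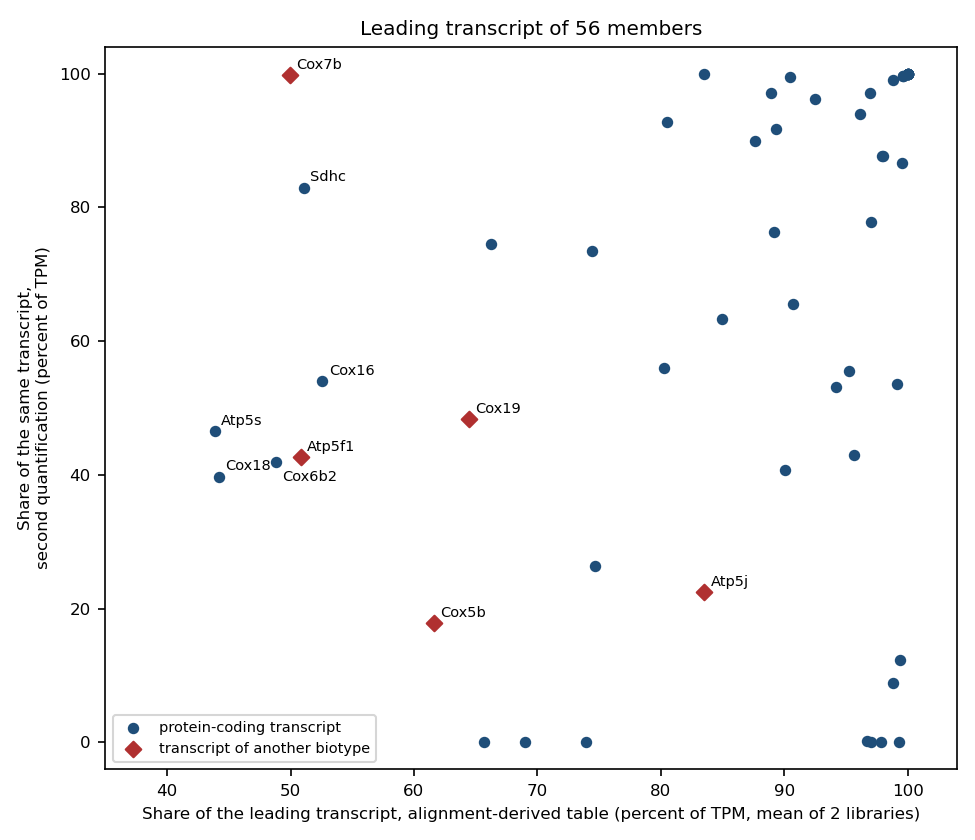
Share of a gene's TPM held by its leading transcript in the alignment-derived table, on the x axis, and the share of that same transcript in the second quantification, on the y axis, as percent and mean of the 2 libraries, for 56 genes. Blue circles are protein-coding transcripts and red diamonds other biotypes, and named genes have a leading share under 60% or a leading record that is not protein-coding. The 7 points at the foot right and centre are at under 1% in the second quantification.

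Promoters were read from RefSeq on GRCm38.p6, the assembly behind mm10, as 250 bases before to 50 after the annotated start, for the 39 of the 61 genes with an entry. NRF1 and the ETS factor GABP are known activators of respiratory chain genes. The NRF1 core GCGCNTGCG was present on either strand in 12 of 39 (30.8%), against 6.59% of 27025 promoters and 14.8% of the 9140 promoters of protein-coding genes above 1 TPM here. The ETS core CCGGAAG was present in 16 of 39 (41.0%), against 9.12% and 18.9%. For CCAAT the share was 51.3%, against 37.9% and 38.6%, for GGGCGG 43.6%, against 35.9% and 66.8%, for AAGATGGCG, the YY1 core, 5.13%, against 1.49% and 3.42%, and for TATAAA 7.69%, against 14.2% and 6.52%. None of these motifs is contained in another. A match is a description of the letters and shows no binding. The promoter of Sdhd held both cores in the 100 bases before its start, chr9:50603850-50603949 on the minus strand, shown with the matches in capitals, the NRF1 core first and each on the opposite strand.

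Sdhd: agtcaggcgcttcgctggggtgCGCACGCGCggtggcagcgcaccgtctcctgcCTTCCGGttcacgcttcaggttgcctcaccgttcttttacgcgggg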

How the data were processed

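Total RNA of the adrenal gland was measured in 2 libraries of 1 group. The deposited gene and alignment-derived transcript tables give, per the file headers, an expected count, TPM and bounds of a TPM interval. These bounds were treated as signal values deposited by the authors. The read-derived table gives, per the file headers, an estimated count and TPM, summed here per gene and called the second quantification. The text beside the deposited files names mm10 and GENCODE M21. For tool versions, strand use and the level of the intervals: not given in the sources used here. TPM sums to the same total over all records of a table, so it depends on which RNAs the table counts.

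The genes, the lists of pathway genes and markers and the rules for named genes were chosen with earlier results of these data known. Named were all complex II subunits, the highest and lowest of the other complexes, mitochondrial genes, paralogues, assembly factors, the 4 highest and 4 lowest ratios, the 5 largest differences between quantifications, and genes whose leading transcript held under 60% or was not protein-coding. The rest were added for completeness. Levels are means ± SD over the libraries. Ratios used a pseudocount of 0.1 and 200 summed counts. Exact 95% intervals of count share ratios are conditional binomial (Clopper-Pearson). For a value of 0 the upper limit is 3 counts. Both cover counting error only. Copies share 100 or more words of 31 bases on the same strand. The measures were tested on simulated data. Alternative scalings used TMM in edgeR 4.0.16 and DESeq2 1.42.0 size factors in R 4.3.3, on counts rounded to whole numbers. Python 3.11.15 was used with scipy 1.17.1, pandas 2.3.3, matplotlib 3.10.9 and numpy 2.4.6.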

Additional observations from a re-analysis of the deposited data

How the results depend on the processing

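The median TPM of the nuclear structural subunits, 171, was 377 in the second quantification and 549 after rescaling TPM over nuclear protein-coding genes, and 166.6 to 175.9 with 1 library left out. The median of the mitochondrial subunits, 5951, was 10017 in the second quantification, 12785 with copies added (chosen after the data were seen) and 5346 to 6556 with 1 library left out. Under the scalings, pseudocount, filter, table and copies tried, the median log2 ratio of the nuclear structural subunits, -0.03, ran from -0.07 (TMM) to 0.01 (second quantification), so its sign was not fixed. For the mitochondrial subunits it ran from 0.03 to 0.08. Genes 25% or more apart numbered 1725 of 12280 in the main setting. They numbered 3033 of 15113 with a filter of 50 summed counts and 9318 of 26301 with none. With TPM + 1 in place of TPM + 0.1 they numbered 1173 of 12280, and with TMM 1385. Members so far apart numbered 4 of 56 in the main setting and with TPM + 1, and 3 of 56 with TMM. Under all alternatives tried they numbered 3 to 5. The gap between members and all genes was thus narrower with TPM + 1. By gene, 59 of 60 levels moved by more than the SD in the second quantification, 58 of them upward, and 12 of 17 paralogue shares moved by under 5 percentage points. With 1 library left out there is no ratio. No paired analysis was possible because there is only 1 group. Depth limits only the genes with few counts, such as Cox4i2, Cox6b2 and the genes at 0.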
